A study of Schizosaccharomyces pombe with 6 samples.

Results

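Thiamine-repressible genes of the fission yeast Schizosaccharomyces pombe are genes transcribed in medium that lacks thiamine (vitamin B1) and shut off when it is supplied. The 5 described here were taken by systematic ID from 6878 counted features: nmt1 (SPCC1223.02, chromosome III), thi2 (SPBC26H8.01, chromosome II), thi4 (SPAC23H4.10c, chromosome I), pho4 (SPBC428.03c, chromosome II) and bsu1 (SPAC17A2.01, chromosome I). All 5 had counts in the files and all 5 passed the filter on low counts. The measurement was small RNA of 20 to 30 nucleotides recovered by pull-down of what the labels call Ago1, an Argonaute protein, the kind that carries the guide RNAs of RNA interference. The 0h group held 3 libraries from growing cells, and the 24h group held 3 libraries from cells kept for 24 h in the minimal medium EMM without nitrogen. Every library came from the strain labelled wt (975 h+), grown at 32 °C in EMM with adenine, histidine, leucine, lysine and uracil. The labels list no thiamine among the additions. FLAG beads were used although no FLAG-tagged allele is named, and only the labels show that Ago1 was recovered. Nothing in the labels says that replicates came from separate cultures, so p-values measure the spread between these libraries, which may be technical.

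Thiamine is built from a pyrimidine part and a thiazole part that are made separately and then joined. Nmt1 makes the pyrimidine part, Thi2 makes the thiazole part, and Thi4 joins them and also phosphorylates the thiazole. The nmt1 promoter is the standard thiamine-controlled promoter of fission yeast genetics. Pho4 is a secreted acid phosphatase and Bsu1 imports vitamin B6, and both genes are shut off by thiamine as well. The transcription factor Thi1 drives genes of this group when thiamine is scarce. The abundance of their small RNA is a different quantity from mRNA, which was not measured in these libraries.

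Reads assigned to features numbered 48040 to 145861 per 0h library and 54393 to 758789 per 24h library, which were 0.495 to 0.601% of aligned reads at 0h and 2.26 to 5.39% at 24h. Of these reads, 44.7% ± 2.54 fell on protein-coding features at 0h, and 82.8% ± 2.08 did so at 24h (SD, n = 3). Values below are counts per 1000000 assigned reads, scaled by edgeR's TMM factors (CPM), which place the typical feature near no change between the groups. Of 1716 tested features, 220 were lower at 24h (12.8%) and 224 were higher (13.1%) in edgeR's quasi-likelihood test at a Benjamini-Hochberg adjusted p below 0.05. The median log2 fold change was -0.02.

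All 5 genes had less small RNA at 24h than at 0h on this scale, and all 5 passed the test, where 12.8% of tested features were lower. Falls ran from 3.19-fold for thi2 to 28.8-fold for pho4, with nmt1 at 9.69-fold, bsu1 at 7.53-fold and thi4 at 7.03-fold. In each gene every 24h library lay below every 0h library, as it did in 19.7% of tested features. Ordered by log2 fold change from the deepest fall, pho4 was in place 5 of the 1716 features, nmt1 in place 22, bsu1 in place 36, thi4 in place 38 and thi2 in place 144. With 0, 9 and 12 counts at 24h, pho4 passed the filter on low counts only through its 0h libraries. Its place is therefore a description. Relative to all aligned reads the picture differed, as given further on. In pull-downs from whole cultures, fewer cells carrying a small RNA and less of it per cell cannot be told apart.

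**Figure D1:**
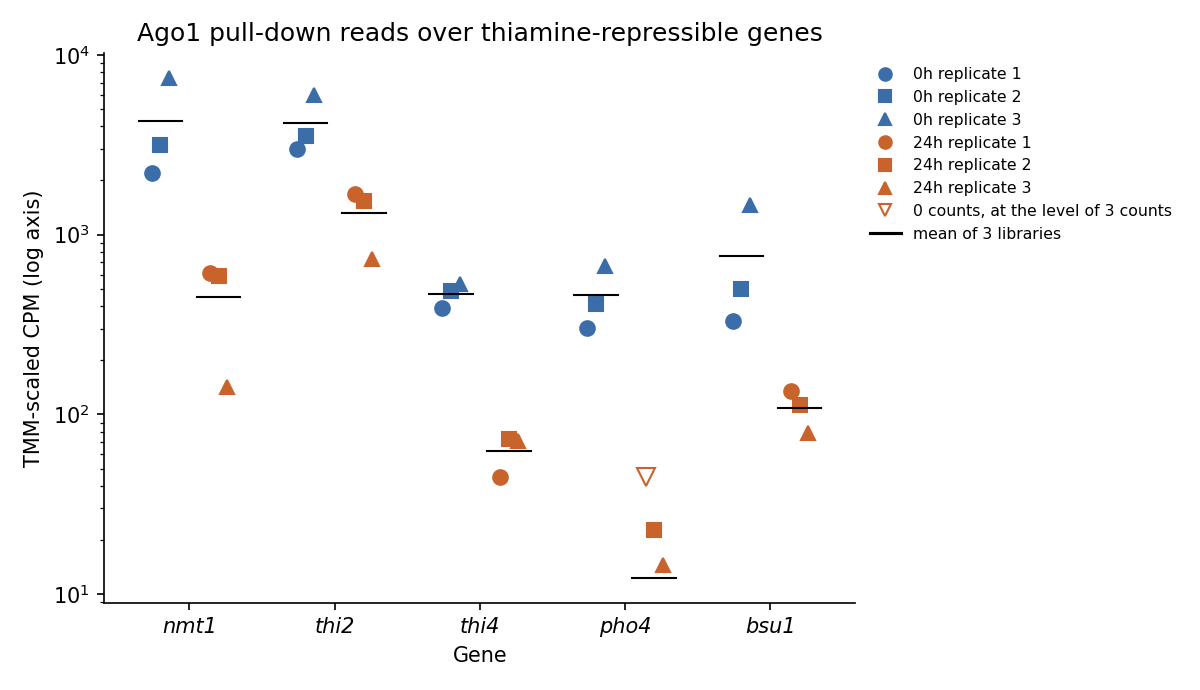
TMM-scaled CPM (log axis) of nmt1, thi2, thi4, pho4 and bsu1 in each library, with blue symbols for 0h, orange for 24h, a shape for each replicate number and a black line for the mean of 3 libraries. The blue symbols of each gene lie above its orange ones, and the open triangle marks the library in which pho4 had 0 counts, drawn at 44.8 CPM, the level of 3 counts.

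The pyrimidine gene nmt1 was at 2198, 3167 and 7432 CPM in 0h replicates 1 to 3, from 73, 300 and 872 counts. At 24h it was at 612, 592 and 142 CPM, from 41, 235 and 118 counts. Replicate 3 was the highest library at 0h and the lowest at 24h. The log2 fold change was -3.28 (SE 0.69, adjusted p = 0.00743, edgeR quasi-likelihood test with Benjamini-Hochberg adjustment). It was -2.69 without 0h replicate 3, which lowers the fold by slightly more than 1.5 times.

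The thiazole gene thi2 was at 2981, 3526 and 5975 CPM at 0h, from 99, 334 and 701 counts, and at 1673, 1531 and 734 CPM at 24h, from 112, 608 and 609 counts. It fell least of the 5 and was the most abundant of them in every 24h library. The log2 fold change was -1.67 (SE 0.51, adjusted p = 0.0338, edgeR). This call was lost when 0h replicate 2 was left out (adjusted p = 0.0927), and likewise for 0h replicate 3 (0.0856), for 24h replicate 1 (0.0714) and for 24h replicate 3 (0.0667). It was also lost with library totals in place of TMM (0.225). Over all alternatives with the same direction, the log2 fold change of thi2 lay between -1.88 and -0.90.

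For thi4, whose product joins the pyrimidine and thiazole parts, CPM values were 392, 486 and 528 at 0h, from 13, 46 and 62 counts. At 24h they were 44.8, 73.0 and 71.1, from 3, 29 and 59 counts. The libraries of each group lay close together and the groups did not overlap, but 24h replicate 1 rests on 3 counts, the floor. As a percent of assigned reads, its Wilson 95% interval (0.00188 to 0.0162) overlapped that of 0h replicate 1 (0.0158 to 0.0463). The log2 fold change of -2.81 had an SE of 0.34, the smallest of the 5 (adjusted p = 0.000930, edgeR), and lay between -2.92 and -2.66 when each library was left out in turn.

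The acid phosphatase gene pho4 was at 301, 412 and 673 CPM at 0h, from 10, 39 and 79 counts. At 24h it had 0, 9 and 12 counts, or 22.7 CPM in replicate 2 and 14.5 CPM in replicate 3. A count of 0 in 24h replicate 1 allows up to 44.8 CPM, still well under the lowest 0h library. The log2 fold change was -4.85 (SE 0.51, adjusted p = 0.000494, edgeR) and ran from -5.18 to -4.53 when each library was left out in turn.

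For bsu1, the vitamin B6 importer gene, CPM values were 331, 496 and 1457 at 0h, from 11, 47 and 171 counts, and 134, 113 and 78.4 at 24h, from 9, 45 and 65 counts. As for nmt1, replicate 3 was highest at 0h and lowest at 24h. The log2 fold change was -2.91 (SE 0.55, adjusted p = 0.00434, edgeR), and it was -2.13 without 0h replicate 3.

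To set levels of different genes side by side, CPM were divided by coding length, which runs from 987 bases for thi2 to 1581 for bsu1. Even coverage of a gene by reads was not tested, so these levels are approximate. At 0h thi2 and nmt1 stood far above the others, at 4216 ± 1615 and 4098 ± 2675 CPM per kilobase of coding sequence (SD, n = 3), and differed from each other by less than their spread. Below them, bsu1 was at 482 ± 385, pho4 at 332 ± 137 and thi4 at 301 ± 45.0 CPM per kilobase, with overlapping library values. Divided by gene span instead, thi4 was at 118, 146 and 159 and pho4 at 177, 242 and 395 CPM per kilobase, which did not overlap. At 24h the order was thi2 (1330 ± 512), nmt1 (431 ± 255), bsu1 (68.7 ± 17.9), thi4 (40.5 ± 10.1) and pho4 (8.89 ± 8.24 CPM per kilobase), and the library values of neighbours in this order did not overlap as counted. The separation of pho4 from thi4 is not firm in 24h replicate 1, where pho4 had 0 counts and thi4 had 3, the floor. Ranked per kilobase among protein-coding genes, thi2 was in place 13, 12 and 7 in the 0h libraries and nmt1 in place 23, 15 and 5. At 24h thi2 was in place 28, 29 and 109 and nmt1 in place 114, 118 and 687, with the lowest place of each in replicate 3. The 0h places of thi4, pho4 and bsu1 ran from 62 (bsu1 in replicate 3) to 442 (bsu1 in replicate 1).

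Together the 5 genes held 206, 766 and 1885 counts in the 0h libraries, which were 0.429% (Wilson 95% interval 0.374 to 0.491), 0.680% (0.634 to 0.730) and 1.29% (1.24 to 1.35) of assigned reads. At 24h they held 165, 926 and 863 counts, or 0.303% (0.261 to 0.353), 0.370% (0.347 to 0.395) and 0.114% (0.106 to 0.122). The intervals cover counting error only. The 24h shares were all below the 0h shares. The intervals of 24h replicates 1 and 2 overlapped, and otherwise libraries of a group lay apart by more than their counting intervals. As a share of protein-coding reads, the means were 1.77% ± 0.952 at 0h and 0.315% ± 0.154 at 24h (SD, n = 3).

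The makeup within the set shifted toward thi2. Of the counts of the 5 genes, thi2 held 42.9% ± 5.46 at 0h and 68.0% ± 2.46 at 24h, nmt1 40.3% ± 5.50 and 21.3% ± 6.61, and pho4 4.71% ± 0.467 and 0.788% ± 0.713 (SD, n = 3 each). A ratio of genes within a library needs no scaling between libraries, so counts were also set against thi2. Over all libraries thi2 had the most counts. Summed over the 0h libraries nmt1 had more (1245 against 1134), because of 0h replicate 3 (872 against 701). In 0h replicates 1 and 2 thi2 had more than nmt1 (99 against 73 and 334 against 300). Since thi2 also fell least of the 5, lower ratios of the other genes at 24h follow from that choice. The ratios and their test are a description and add no separate evidence of a fall. For each 100 counts of thi2, nmt1 had 73.7, 89.8 and 124 counts in the 0h libraries and 36.6, 38.7 and 19.4 in the 24h libraries. The corresponding values of pho4 were 10.1, 11.7 and 11.3 at 0h, nearly the same in each library, and 0, 1.48 and 1.97 at 24h. For bsu1 they were 11.1, 14.1 and 24.4, against 8.04, 7.40 and 10.7, so that the groups were separated by a narrow gap. For thi4 they were 13.1, 13.8 and 8.84, against 2.68, 4.77 and 9.69, and the groups overlapped. The exact permutation test (two-sided, 4 ratios) gave p = 0.10 for nmt1, pho4 and bsu1, the smallest value that 3 against 3 libraries allow, and p = 0.20 for thi4, with adjusted values of 0.133 and 0.20. This design therefore cannot reach 0.05 in that test.

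**Figure D2:**
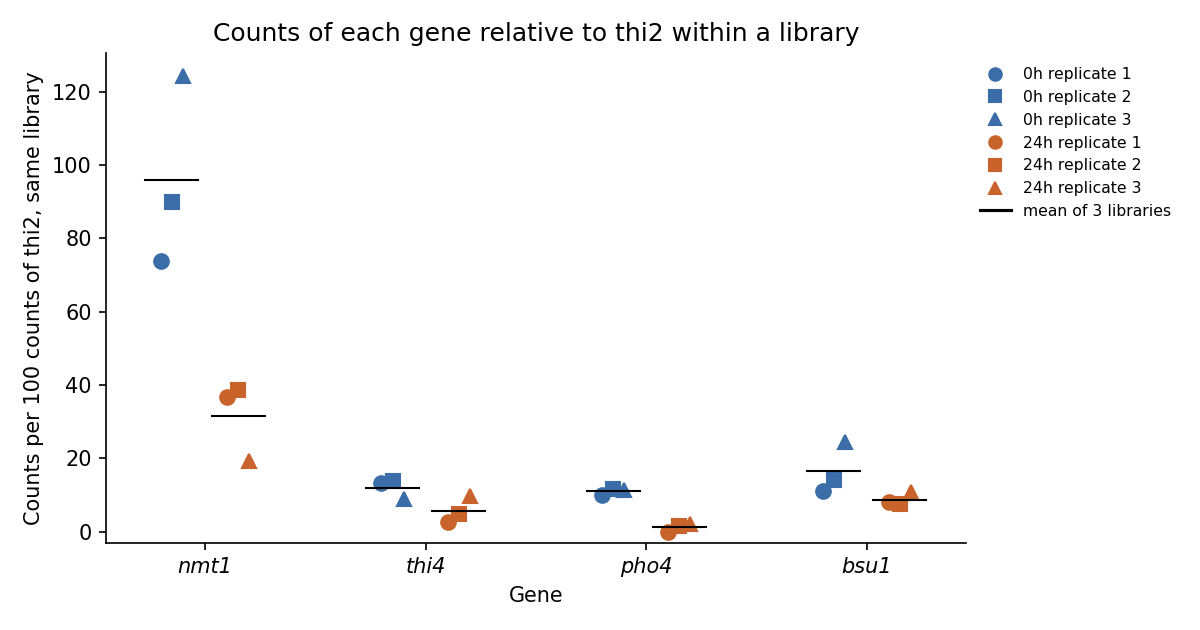
Counts of nmt1, thi4, pho4 and bsu1 per 100 counts of thi2 in the same library, on a linear axis, with blue symbols for 0h, orange for 24h and black lines for the mean of 3 libraries. The symbols of nmt1 run from 73.7 to 124 at 0h and from 19.4 to 38.7 at 24h, those of pho4 from 10.1 to 11.7 and from 0 to 1.97, and those of thi4 overlap.

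The direction of change depended on what the counts were divided by. Assigned reads were a larger part of aligned reads at 24h, and per aligned read the median feature was at a log2 fold change of 3.55, with 93.9% of tested features called higher. On that scale nmt1 was at 0.47 (adjusted p = 0.550), thi4 at 0.73 (0.354), bsu1 at 0.69 (0.365) and pho4 at -1.36 (0.104, all edgeR with Benjamini-Hochberg), and thi2 was called higher, at 2.008 (0.0160). Counts of pho4 per 1000000 aligned reads were 1.03, 1.74 and 3.25 at 0h and 0, 1.94 and 0.358 at 24h, so the groups overlapped. Those of thi2 were 10.2, 14.9 and 28.9 against 68.4, 131 and 18.1, and overlapped because of 24h replicate 3. The groups of all 5 genes overlapped on this scale, where 92.3% of tested features had every 24h library above every 0h library. Relative to the median feature on the same scale, the 5 genes lay between 1.54 (thi2) and 4.91 (pho4) log2 units lower. With library totals (median 0.69) 4 of the 5 were called lower, where 5.54% of tested features were, and with protein-coding reads as the library size (median -0.18) all 5 were, where 14.3% were.

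**Figure D3:**
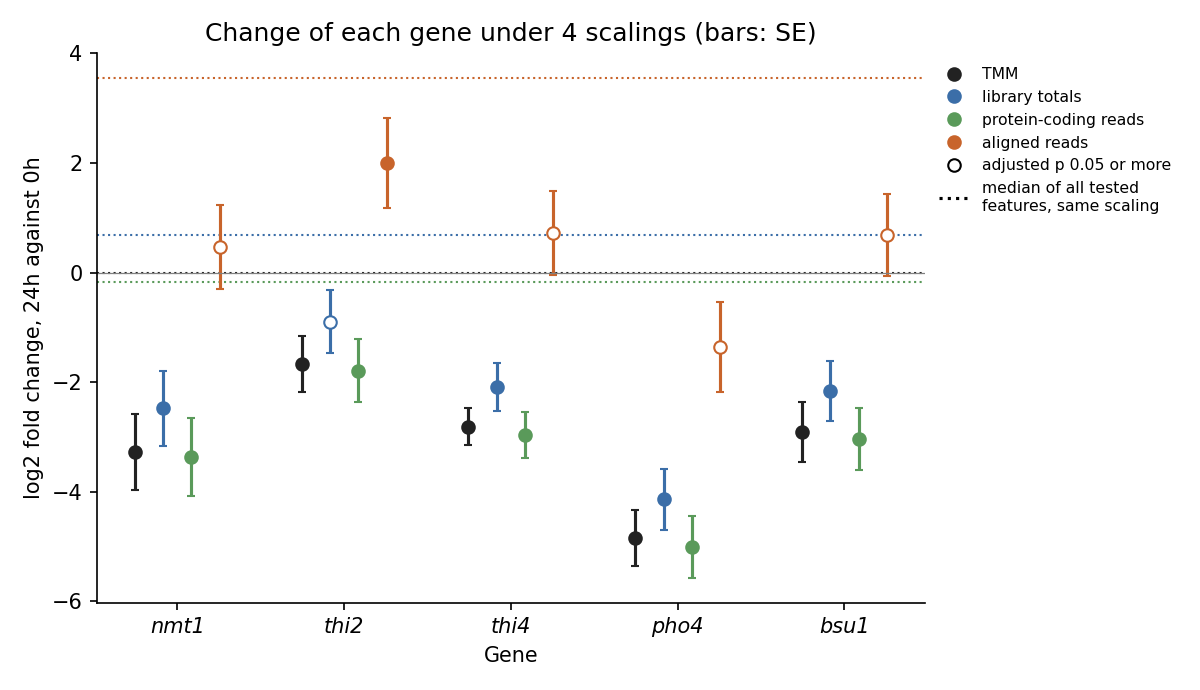
log2 fold change of each gene at 24h against 0h with its SE under 4 scalings, filled where the edgeR adjusted p was below 0.05, with dotted lines for the median of all tested features under the same scaling. Under TMM, library totals and protein-coding reads all 5 genes lie below 0, and per aligned read 4 lie above 0 while all 5 lie below the dotted line at 3.55.

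Other genes that regulate, carry or convert thiamine were looked at next. Of 6 such genes, taken by RefSeq description or by symbol, 2 had enough counts to be tested and neither passed. The plasma membrane thiamine transporter gene thi9 was at 324 ± 217 CPM at 0h and 381 ± 59.0 at 24h (SD, n = 3), a log2 fold change of 0.18 (SE 0.46) that ran from -0.21 to 0.92 when each library was left out in turn. The gene SPCC794.03, annotated as a thiamine transporter, was at 115 ± 64.0 and 115 ± 32.7 CPM, with the same log2 fold change of 0.18 (SE 0.46). The transcription factor genes thi1 and thi5 had 12 and 9 counts at 0h and 76 and 43 at 24h, too few to be tested. In CPM, thi1 was at 59.8 ± 32.5 at 0h and 43.0 ± 27.0 at 24h, and thi5 at 29.0 ± 26.8 and 37.6 ± 7.33 (SD, n = 3). Also too low for the test was tnr3, whose product makes thiamine pyrophosphate, with 14 and 34 counts. It was at 65.4 ± 23.9 and 26.8 ± 3.70 CPM (SD, n = 3). The thiamine pyrophosphate transporter gene SPBC1604.04 had 2, 4 and 8 counts at 0h and 0, 3 and 3 at 24h. It too missed the filter. In the edgeR fit with no filter, where 5.43% of features were called lower, it was called lower on these few counts (log2 fold change -3.14, SE 0.80, adjusted p = 0.00185).

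That search left out thi201, thi20 and thi7, whose RefSeq descriptions do not name thiamine. The first is named for its profile, given further on, and the other two were looked up after values had been seen. The gene thi201 (SPBP8B7.18c) encodes a kinase that readies the pyrimidine part for joining. It went from 301, 243 and 384 CPM at 0h, from 10, 23 and 45 counts, to 29.9, 32.7 and 36.2 at 24h, from 2, 13 and 30 counts. The 2 counts in 24h replicate 1 lie below the floor of 3 counts, so the likeness of the 24h values is not firm. On the log2 scale thi201 fell by 3.17 (SE 0.35, adjusted p = 0.000494, edgeR), and was at 0.28 per aligned read (adjusted p = 0.720). It passed the filter on low counts through its 0h libraries. Since thi201 was picked for a profile close to that of thi4, which fell, its fall follows from that choice. The adjusted p of thi201 is therefore no separate evidence. The neighbour and relative of thi201, thi20, had 7 counts at 0h and 38 at 24h, not enough for the test. In CPM thi20 was at 22.6 ± 21.3 and 24.7 ± 8.62 (SD, n = 3). Reads shared between these related genes could be missing from both, since reads of low mapping quality were not counted. The gene thi7, annotated as a transporter, had 2, 5 and 5 counts at 0h and 11, 120 and 216 at 24h. It rose from 51.9 ± 8.84 to 242 ± 70.7 CPM (SD, n = 3; log2 fold change 2.34, SE 0.41, adjusted p = 0.00333, edgeR), where 13.1% of tested features were higher. Since thi7 passed the filter only through its 24h libraries and was looked up after values had been seen, its adjusted p is a description too.

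Of 10 genes for enzymes that use thiamine pyrophosphate as cofactor, including a regulatory subunit, 8 were tested, with a median log2 fold change of -0.31. Of these 8, pdc201, a pyruvate decarboxylase gene, passed and 7 did not, so that 1 of 8 rose where 13.1% of all tested features did. It rose from 241, 116 and 136 CPM to 986, 738 and 7808 CPM, a log2 fold change of 4.35 (SE 0.94, adjusted p = 0.00801, edgeR). Replicate 3 decided the size, since the change was 2.43 without 24h replicate 3, and the adjusted p was 0.0525 without 0h replicate 2. Another pyruvate decarboxylase gene, pdc101, was at 2765 ± 751 and 2193 ± 703 CPM (SD, n = 3), a log2 fold change of -0.34 (SE 0.45, adjusted p = 0.615, edgeR). The transketolase gene tkt1 was at 0.09 (SE 0.38) and the dehydrogenase gene pda1 at -0.13 (SE 0.34). Per aligned read all 8 were called higher, with a median of 3.35, where 93.9% of tested features were, with a median of 3.55.

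Among vitamin B6 genes 3 of 10 were tested, and 1 of them fell, where 12.8% of tested features did. This was snz1, which encodes the synthase of pyridoxal phosphate, at 693, 1098 and 1347 CPM at 0h and 343, 315 and 262 at 24h. Its groups did not overlap, and the log2 fold change was -1.80 (SE 0.39, adjusted p = 0.00827, edgeR), but -1.06 with library totals (adjusted p = 0.0766) and 1.80 per aligned read (adjusted p = 0.0204). The pyridoxal reductase gene plr1 was at 0.52 (SE 0.36, adjusted p = 0.321, edgeR), and SPBC725.03, annotated as a pyridoxamine phosphate oxidase, at 1.20 (SE 0.54, adjusted p = 0.126). With library totals, where 33.1% of tested features were called higher, plr1 (1.22, adjusted p = 0.0336) and SPBC725.03 (1.81, adjusted p = 0.0106) both were. The acid phosphatase search returned 4 genes, of which SPBC409.18 is a phosphatidic acid phosphatase, an enzyme of lipids, and 2 were tested. The phosphate-regulated pho1 fell, at 392, 412 and 3443 CPM at 0h and 134, 108 and 159 at 24h (log2 fold change -3.42, SE 0.80, adjusted p = 0.0115, edgeR). Its fall was -1.64 without 0h replicate 3, its adjusted p was 0.0601 without 24h replicate 1, and per aligned read it was at -0.09. The other, SPBC4.06, was at -0.44 (SE 0.46, adjusted p = 0.516, edgeR).

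**Figure D4:**
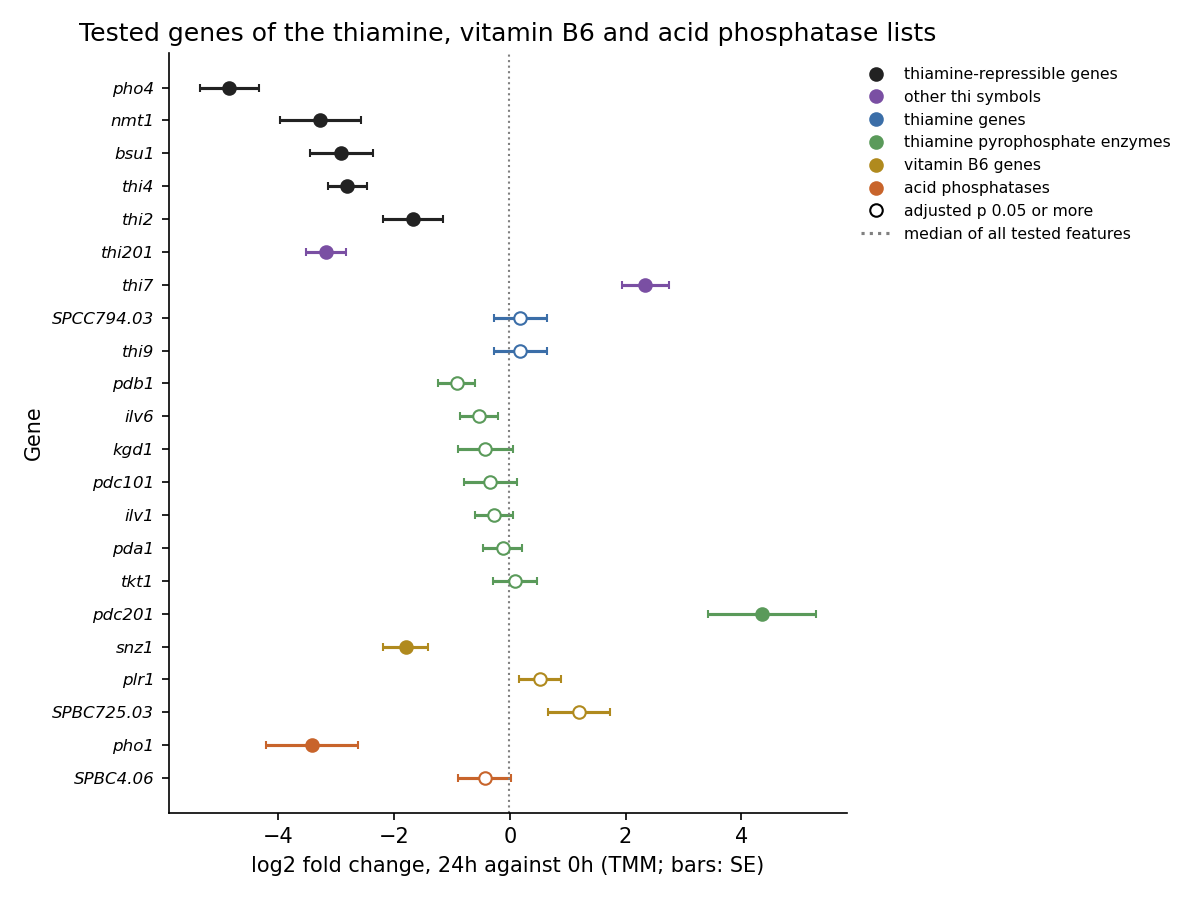
log2 fold change at 24h against 0h with its SE (TMM scaling), coloured by list and filled where the edgeR adjusted p was below 0.05. Shown are the 5 genes, each tested gene of the lists, and thi201 and thi7, which are outside the lists. The 5 thiamine-repressible genes, thi201, snz1 and pho1 lie to the left of the dotted median, pdc201 and thi7 to the right, and the remaining symbols are open.

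The features that lie next to these genes or overlap them were then read. RefSeq places 18 such neighbours, 9 of them present in the files and 2 of those tested. SPNCRNA.1359 is a long noncoding RNA that lies downstream of pho4 on the same strand, and its RefSeq description adds that it may be an alternative untranslated region. It had 6, 14 and 9 counts in the 0h libraries and 0, 0 and 1 in the 24h libraries. The pooled ratio of 0h to 24h was 153, with a 95% counting interval of 25.4 to 6247. It did not pass the filter on low counts, and in the edgeR fit with no filter, where 5.43% of features were called lower, its adjusted p was 8.69e-11. In that fit, pho4 itself was at -4.51. Per aligned read the pooled ratio of SPNCRNA.1359 was 20.5, with a counting interval of 3.39 to 836. SPNCRNA.1358, on the opposite strand of pho4, had 0, 3 and 6 counts at 0h and 0, 1 and 7 at 24h. Per scaled total its 0h reads exceeded its 24h reads by a pooled ratio of 5.93 (2.03 to 17.7, adjusted p = 0.0772 in the edgeR fit with no filter). Per aligned read that ratio was 0.794 (0.272 to 2.37). Since the strand counted as a feature's own is unknown, counts of a gene and of a feature on its other strand could be exchanged.

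Of the other 8 neighbours, cdb4 and sec9 had enough counts for the test and neither passed, and none of the 8 was called lower in the edgeR fit with no filter. SPNCRNA.1234, on the opposite strand of nmt1, had 5, 5 and 2 counts at 0h and 1, 6 and 38 at 24h. Its pooled ratio of 0h to 24h was 1.41 (0.677 to 2.70, adjusted p = 0.741 in the edgeR fit with no filter). SPNCRNA.1235, downstream of nmt1 on the same strand, had 15 counts at 0h and 25 at 24h. Its 0h-to-24h ratio of pooled rates was 3.16 (1.55 to 6.24, adjusted p = 0.132 in the same edgeR fit). Per aligned read, where 93.9% of tested features were called higher at 24h, the ratio of SPNCRNA.1235 was 0.423 (0.208 to 0.835). That of SPNCRNA.1234 was 0.188 (0.0906 to 0.362). The gene cdb4, which overlaps thi4 on the opposite strand, was at 131 ± 95.6 and 83.1 ± 34.1 CPM (SD, n = 3; log2 fold change -0.56, SE 0.52, adjusted p = 0.457, edgeR). The gene sec9, downstream of thi2 on the opposite strand and coding for a membrane fusion protein, was at 41.0 ± 35.6 and 122 ± 11.2 CPM (log2 fold change 1.21, SE 0.48, adjusted p = 0.0845, edgeR; 1.54 and 0.0282 with no filter). Upstream and downstream of thi4, cnl2 had 3 counts at 0h and 2 at 24h and iwr1 had 3 and 16, too few to be tested. In CPM, cnl2 was at 9.20 ± 8.60 and 0.80 ± 1.39, and iwr1 at 9.88 ± 10.6 and 17.8 ± 10.5 (SD, n = 3). The gene tlc4, downstream of bsu1, had 23 and 38 counts, a pooled ratio of 0h to 24h of 3.19 (1.82 to 5.50; adjusted p = 0.171 with no filter). It passed the filter in 3 edgeR fits with a library left out. There the log2 fold changes were -1.73 to -1.47, and adjusted p ran from 0.0333 (without 0h replicate 1) to 0.166. Per aligned read the pooled ratio of tlc4 was 0.427 (0.243 to 0.736).

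The tested features whose profile over the 6 libraries was most like each gene were found by the root mean square difference of centred log2 CPM values. These features were picked for their likeness over libraries that share depth and scaling, so the values are a description. For pho4 the nearest was eng1 (SPAC821.09), whose glucanase separates daughter cells, at 0.21 log2 units, followed by SPNCRNA.838 at 0.76. For thi4 the nearest was thi201 at 0.26, followed by the galactosyltransferase gene gmh4 at 0.26. For thi2 they were SPBC8D2.18c, annotated as adenosylhomocysteinase, at 0.23, and the glycoprotein gene SPBPJ4664.02 at 0.24. For nmt1 they were SPNCRNA.504 at 0.63 and bsu1 at 0.64, and for bsu1 SPNCRNA.504 at 0.48 and the tRNA feature SPATRNACYS.02 at 0.49. Among the 5 genes the closest pair was thi2 and bsu1, at 0.54, and the most distant was thi2 and pho4, at 1.71. With tested features ordered by distance from thi2, bsu1 was in place 42 and pho4 in place 1453. Ordered from bsu1, thi2 was in place 4.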

How the data were processed

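The authors deposited raw read counts per annotated feature, 1 file per library, and no other sample's columns were involved. Cutadapt, Bowtie2 2.1.0, HTSeq 0.6.1 and the build ASM294v2 are named, per the submitters' processing notes, without options; which strand counts as a feature's own is not given in the sources used here. Counting had used strand: 492 of 576 features nested on the other strand of a larger feature (85.4%) had counts. Tally lines (94.6 to 99.5% of aligned reads, mostly of low mapping quality) stayed out of library sizes and tests, except where aligned reads were the library size.

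Names, descriptions, neighbours and coding lengths came from RefSeq (ASM294v3), where 6714 of 6878 IDs matched. No coordinates or sequences are given because the builds differ. edgeR 4.0.16 (R 4.3.3) was run with TMM, filterByExpr (minimum count 10) and a robust quasi-likelihood model of group, two-sided, with Benjamini-Hochberg adjustment over 1716 features at a threshold of 0.05. SE is the log2 fold change over the root of its F value. The script was tested on simulated data. Alternatives were library totals, aligned reads, DESeq2 1.42.0, no filter, a minimum count of 30, a replicate block and each library left out; protein-coding reads as library size and ratios to thi2 were added after seeing the data. The text names the 5 genes, their neighbours, genes of each list past the test (at most 4), tested thiamine genes and the 2 nearest profiles per gene (prior count 2). Further list members and thi symbols were named after their values were seen. Members and lists were chosen with earlier results of these data known. Without molecular identifiers, intervals and the floor of 3 counts cover counting error only. No replicates agreed within sampling noise.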

Additional observations from a re-analysis of the deposited data

How the results depend on the processing

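Direction held for all 5 genes under library totals, protein-coding reads, DESeq2, no filter, the replicate block and every left-out library. Without each library in turn the log2 fold changes ran from -5.18 to -4.53 (pho4), -3.61 to -2.69 (nmt1), -2.92 to -2.66 (thi4), -3.25 to -2.13 (bsu1) and -1.88 to -1.39 (thi2). Per aligned read, nmt1 (0.47), thi2 (2.008), thi4 (0.73) and bsu1 (0.69) turned direction and pho4 (-1.36) no longer passed, where the median feature moved to 3.55. The call of thi2 was also lost with library totals (-0.90) and with no filter (-1.35, adjusted p = 0.0696, edgeR). With a minimum count of 30, pho4 and bsu1 were not tested. Higher and lower calls over all features numbered 224 and 220, and 568 and 95 with library totals, 1611 and 4 per aligned read, 479 and 337 with no filter, and 100 and 76 with a minimum count of 30, which tests fewer features. Without each library they ran from 110 to 204 higher and from 147 to 235 lower. The summed share of the 5 genes was 0.801% at 0h and 0.263% at 24h, 0.00443% and 0.0109% of aligned reads, and 1.77% and 0.315% of protein-coding reads. It ran from 0.555 to 0.986% at 0h and from 0.209 to 0.337% at 24h without each library. Per kilobase of gene span in place of coding length, thi4 was at 141 CPM at 0h and 19.0 at 24h. With the replicate block the calls were 279 higher and 271 lower and all 5 genes passed (pho4 -5.00, nmt1 -3.25, thi4 -2.85, bsu1 -2.78, thi2 -1.68). Deviations of same-numbered libraries correlated at 0.06, 0.15 and 0.18 across features. Each 0h library correlated best with the 24h library of its own number (3 of 3), a hint from the data and not the design. Apart from the cases with a reason given, the cause was not tested. With 21 counts in all at 24h, pho4 has the least precise level there.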
